A study of Mus musculus with 6 samples.

Results

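The genes described here rose when NMuMG cells were given TGF-β and were lower again when 2APB was present as well. They were chosen from the count table by level alone. Counts were scaled to the same total of 1000000 counts in every library (CPM), and a gene was kept when its lower TGF-β library was at least 1.5 times its higher DMSO library and at least 1.5 times its higher TGF-β+2APB library, with a mean of at least 1 CPM under TGF-β. The rule kept 78 of the 18512 rows of the table (0.421%), or 0.679% of the 11495 rows with a mean of at least 1 CPM under TGF-β. Of the 78 members, 75 are protein-coding and the remaining 3 (C630043F03Rik, Gm19589 and 1700018A04Rik) are non-coding.

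NMuMG is an epithelial line from mouse mammary gland. After 4 h without serum, the cells received DMSO as vehicle, TGF-β (5 ng/ml), or the same dose of TGF-β combined with 2APB (50 uM). The study describes 2APB as an inhibitor of store-operated calcium entry that blocks the channels ORAI1 and ORAI2. It also reports that calcium influx through the related channel ORAI3 rose with 2APB. Polyadenylated RNA from 2 biological replicates of each treatment was sequenced, which gave 6 libraries with 71840570 to 79473182 counts each. Treatment lasted 24 h, and whether 2APB was added with TGF-β or ahead of it could not be settled from the sources used here. No library with 2APB but without TGF-β was analysed here, so a loss of the TGF-β response and an effect of 2APB on the gene by itself cannot be told apart.

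TGF-β drives epithelial cells through an epithelial to mesenchymal transition, in which cell contacts loosen and matrix proteins, matrix proteases and actin regulators are made in larger amounts. Its receptors signal through SMAD proteins, which act on promoters together with other factors such as AP-1. In epithelial cells TGF-β is also known for holding cells in G1, where E2F factors and the retinoblastoma protein set the supply of replication proteins. Store-operated calcium entry refills the endoplasmic reticulum through STIM sensors and ORAI channels, and the calcium that enters also activates calcineurin and NFAT.

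Promoter windows from RefSeq (GRCm38.p6, from 250 bases before to 50 bases after the annotated start) were found for 66 of the 78 members. The sequences that follow are stretches of these windows upstream of the RefSeq start, printed 5′ to 3′ on the strand of the gene, and lie outside annotated exons. For Cdc6 the GENCODE gene begins earlier, at chr11:98907801, so its stretch lies within that gene. They are shown because replication genes and genes of matrix remodelling and surface receptors make up much of the membership, and each stretch holds a match to a motif commonly assigned to such genes. Capitals mark a match to an E2F motif (TTTCCCGC, TTTGGCGC, TTTCGCGC or TTTGCCGC, searched on both strands) in the first 3 sequences, which belong to replication and repair genes. In Cdc6 and E2f7 the match is on the opposite strand, so its reverse complement is in capitals.
Cdc6, chr11:98907982-98908066, plus strand: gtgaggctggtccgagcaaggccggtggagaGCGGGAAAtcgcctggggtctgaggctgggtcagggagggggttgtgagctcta
E2f7, chr10:110745195-110745294, plus strand: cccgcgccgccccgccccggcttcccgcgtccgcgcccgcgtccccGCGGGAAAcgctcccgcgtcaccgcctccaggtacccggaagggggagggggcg
Bard1, chr1:71103147-71103222, minus strand: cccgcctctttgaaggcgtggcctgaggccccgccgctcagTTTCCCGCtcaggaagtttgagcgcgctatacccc

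The next pair of stretches belongs to a secreted protease and a cytokine receptor, and capitals mark a match to the AP-1 motif TGANTCA, which reads the same way on both strands apart from its central base.
Mmp10, chr9:7502232-7502331, plus strand: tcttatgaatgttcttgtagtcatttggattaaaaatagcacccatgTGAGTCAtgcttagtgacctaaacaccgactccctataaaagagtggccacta
Il13ra2, chrX:147429333-147429432, minus strand: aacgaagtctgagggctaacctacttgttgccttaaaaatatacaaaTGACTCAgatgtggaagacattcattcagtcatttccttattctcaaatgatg

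The share of promoters with each motif was compared between members, tested genes and all RefSeq promoters, with no test. An AP-1 match was present in 7.58% of the member promoters, in 5.48% of the promoters of the tested genes and in 7.93% of all RefSeq promoters. The E2F motif was found in 5 member promoters (7.58%), against 4.02% of tested genes and 2.32% of all promoters. Of those 5, Cdc6, Bard1, Clspn and E2f7 belong to the replication, repair, chromatin and division group and make up 28.6% of its 14 promoters, and the other is Cdkn2a. The share of that group became 42.9% when every RefSeq window of a gene was searched, against 4.56% of tested genes. On the forward strand alone it was 7.14% (1 of 14), against 2.15% of tested genes. No share was computed for replication genes that are not members, so whether these shares are particular to the members was not tested. A TATA box (TATAAA, both strands) was found in 16.7% of member promoters, Mmp10, Tnc, Igfbp4 and Cldn2 among them, compared with 7.41% of tested genes and 14.2% of all promoters. None of the 14 replication-group promoters held it. The SMAD element CAGACA (15.2%, tested genes 16.1%), the TEAD motif GGAATG (15.2%, tested genes 12.2%) and the NFAT core GGAAA (63.6%, tested genes 58.9%) were about as frequent in members as in tested genes. CArG boxes were found in 1 member promoter (1.52%, tested genes 1.30%) and NF-kB motifs in 2 (3.03%, tested genes 5.19%). No member promoter held the CRE TGACGTCA or the SMAD palindrome GTCTAGAC, which occur in 3.32% and 0.249% of tested genes. The letters of a motif in a window do not show that a factor binds there.

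**Figure D1:**
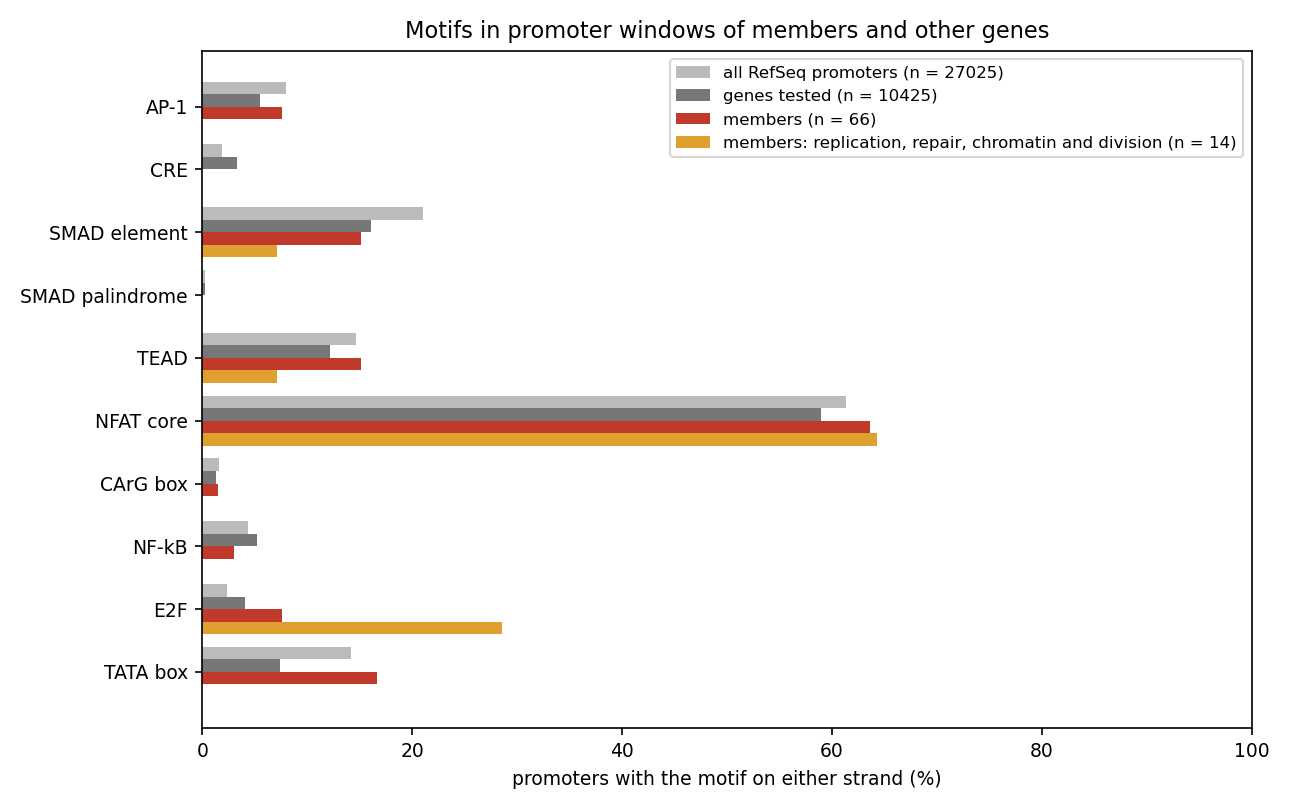
Share of promoter windows (horizontal axis, percent) that hold each motif on either strand, for all RefSeq promoters, genes tested, the 66 members with a promoter and the 14 members of the replication, repair, chromatin and division group. E2F matches were found in 4 of the 14 promoters of that group (28.6%) and in 4.02% of tested genes. Replication genes that are not members were not compared. AP-1, SMAD, TEAD and NFAT shares of the members lay within a few percentage points of those of tested genes.

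All 6 libraries were used to choose the members, so the rise with TGF-β and the lower level with 2APB are descriptions and carry no test. In mean CPM the rise with TGF-β had a median of 2.45-fold. It was below 3-fold in 46 members and 10-fold or more in 15. The smallest was 1.52-fold, for Gpr126, and the largest among members with more than 3 counts in a DMSO library was 133.9-fold, for Mmp9. In 19 members the mean DMSO level was under 1 CPM. The TGF-β mean exceeded the TGF-β+2APB mean by a median of 2.19-fold, with a range from 1.59-fold (Fignl1) to 15.8-fold (Gzme).

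The share of the rise that was absent with 2APB was computed from mean CPM as the fall from TGF-β to TGF-β+2APB in percent of the rise from DMSO to TGF-β. It ran from 44.4% in Arap3 to 200% in Arhgap6, with a median of 88.5%. The rise of Arhgap6 that this 200% is taken from was itself uncertain, with a log2 fold change of 0.78 ± 0.39 (SE). The share was 100% or more, with the mean at or below that of DMSO, in 26 members and under 100% in 52. Just inside the threshold of 1.5 lay Slc29a1 (smaller of its 2 ratios 1.504), Htr1b (1.504) and Gsg2 (1.509). Just outside were Cav1 (1.4998), Kcnq3 (1.4992) and Kdelr3 (1.494). When the rule was applied to replicate 1 alone it kept 218 rows, of which 93 (42.7%) also met it in replicate 2, compared with 1.80% of the 11515 rows at or above the minimum level in replicate 2. In the opposite direction 93 of 207 rows (44.9%) did, against 1.91% of 11429 rows.

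**Figure D2:**
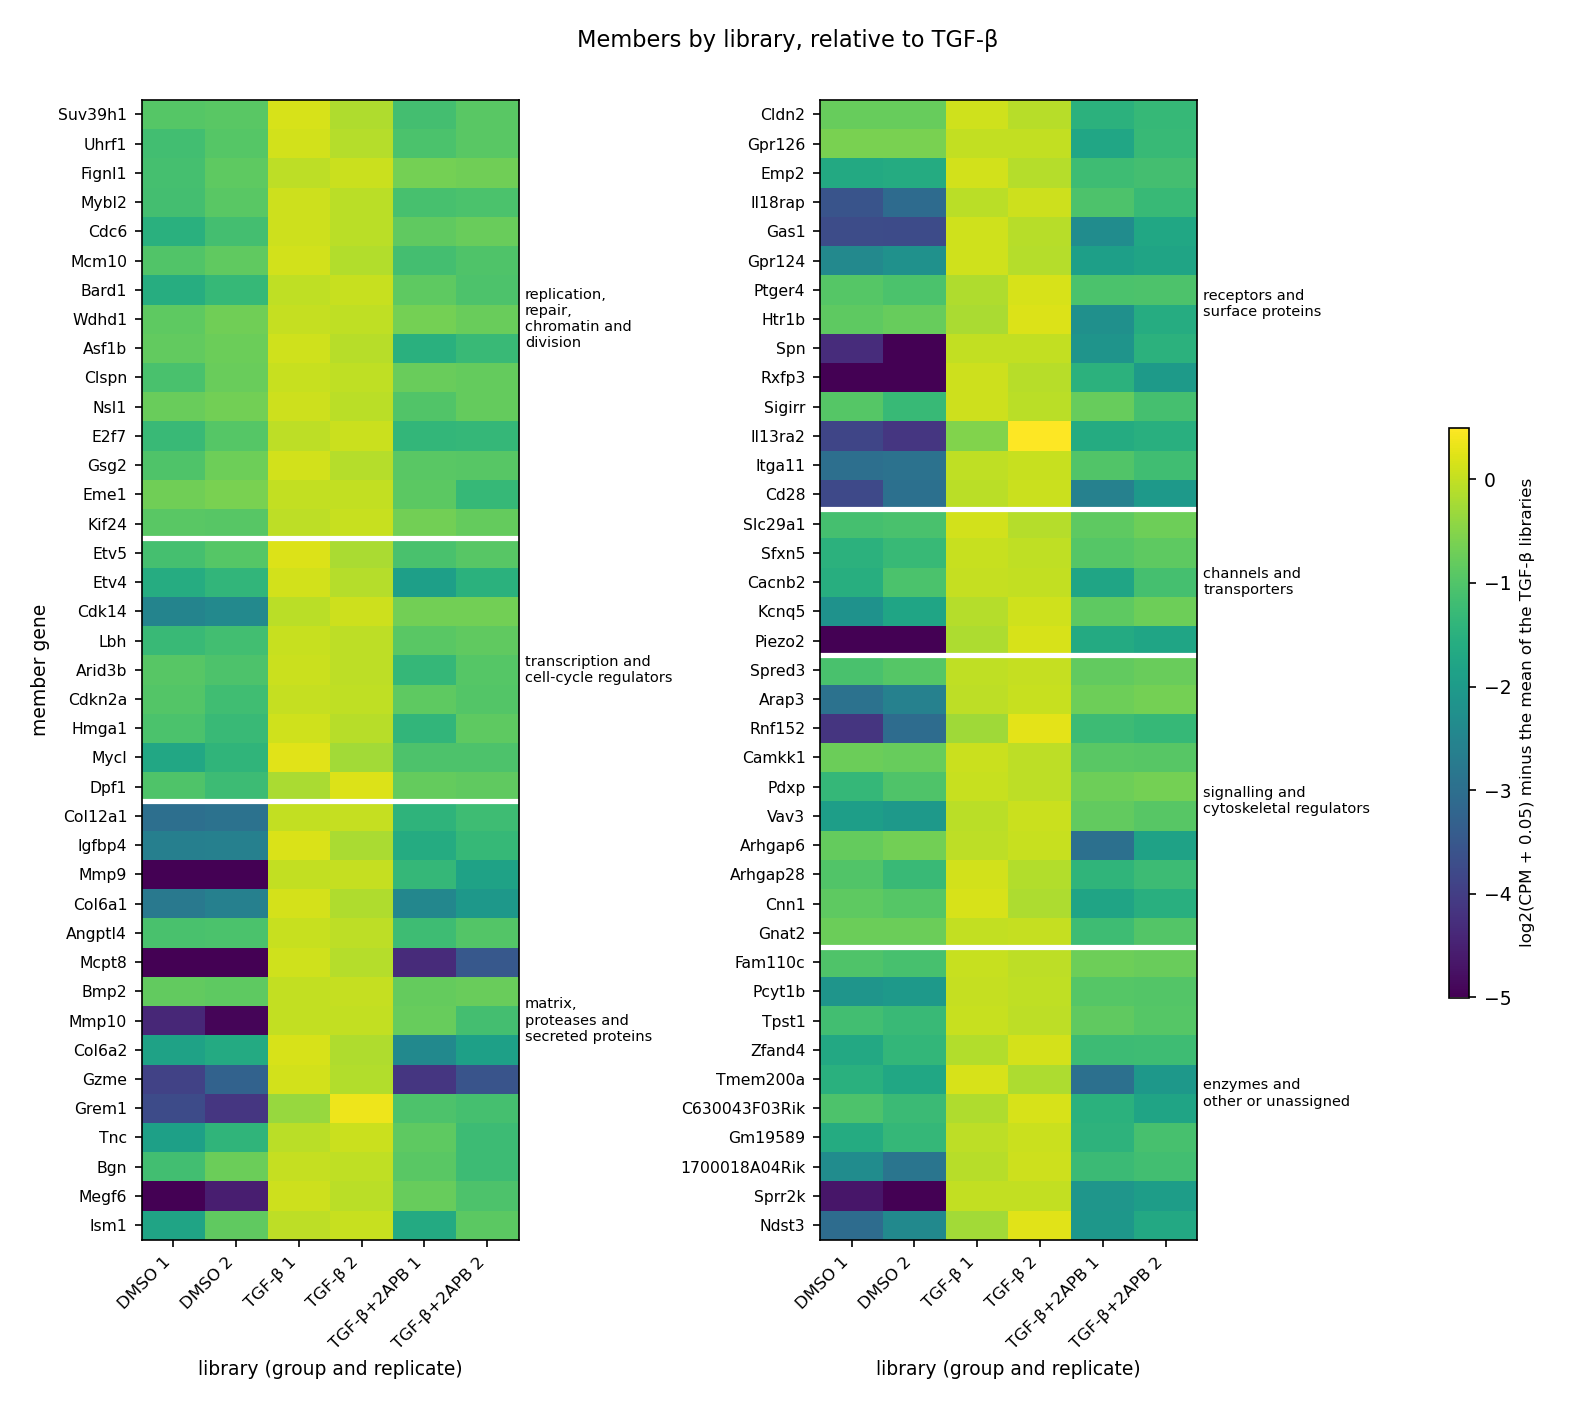
Each row is a member, each column a library, and colour is log2(CPM + 0.05) minus the mean of the TGF-β libraries, with the lowest values drawn in the darkest colour of the scale. Members are ordered by role group (separated by white lines) and by their TGF-β level. All 15 members of the replication group differ by less than 3-fold between DMSO and TGF-β, whereas Mmp9, Mcpt8, Rxfp3 and Piezo2 are near 0 in DMSO.

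The level left with 2APB against that of DMSO was the only comparison that could be tested. It used edgeR's quasi-likelihood test on 13353 genes, in which all 78 members were included, with genes called at a Benjamini-Hochberg adjusted p (FDR) of at most 0.05. The rule caps both groups relative to TGF-β and does not fix their order. Still, with TGF-β+2APB at least 1.5-fold below TGF-β, a member with a small rise cannot lie far above DMSO. A member with a large rise can, so the size of the rise and these calls are linked by the rule. Of the 78 members, 34 were called higher in TGF-β+2APB than in DMSO, where 25.6% of all tested genes were called higher. Only 5 were called lower, where 27.2% of all tested genes were. The other 39 were not called, which does not show that their levels were equal. The median log2 fold change of the members was 0.37, and that of all tested genes was -0.003. In CPM, both TGF-β+2APB libraries lay above both DMSO libraries in 44 members (39.8% of all rows with a mean of at least 1 CPM under TGF-β) and below both in 15 (48.5% of those rows), and 19 overlapped. Replicate 2 of TGF-β+2APB stands apart as described next. Fewer members were called higher without it, and the same was so without either DMSO library or without replicate 1 of TGF-β+2APB. Of the 39 called members, 23 kept their call in every refit and 16 lost it with at least 1 library left out (Arhgap6, Asf1b, Bard1, Cdc6, Cldn2, Emp2, Fam110c, Fignl1, Gpr124, Htr1b, Lbh, Pdxp, Sfxn5, Slc29a1, Spred3 and Tpst1).

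That library held far more RNA of leukocyte marker genes than the others. The summed level of 17 leukocyte markers was 490 CPM there, of which Lyz2, the lysozyme of macrophages, made up 369 CPM. The same sum was 7.44 to 65.6 CPM in the other libraries, with 17.3 and 7.44 CPM under TGF-β alone and 15.5 CPM in replicate 1 of TGF-β+2APB. Hepatocyte markers summed to 1249 and 1149 CPM in the DMSO libraries and to 2.42 to 17.0 CPM in the others, and salivary markers were above 1 CPM in replicate 2 of TGF-β and both TGF-β+2APB libraries only (32.2 to 122 CPM). Of the epithelial markers of the line, Cdh1, Krt8 and Krt18 were abundant, Epcam was near 1 CPM and Cldn7 near 0. In bulk RNA, fewer cells of a type and less RNA per cell cannot be told apart.

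**Figure D3:**
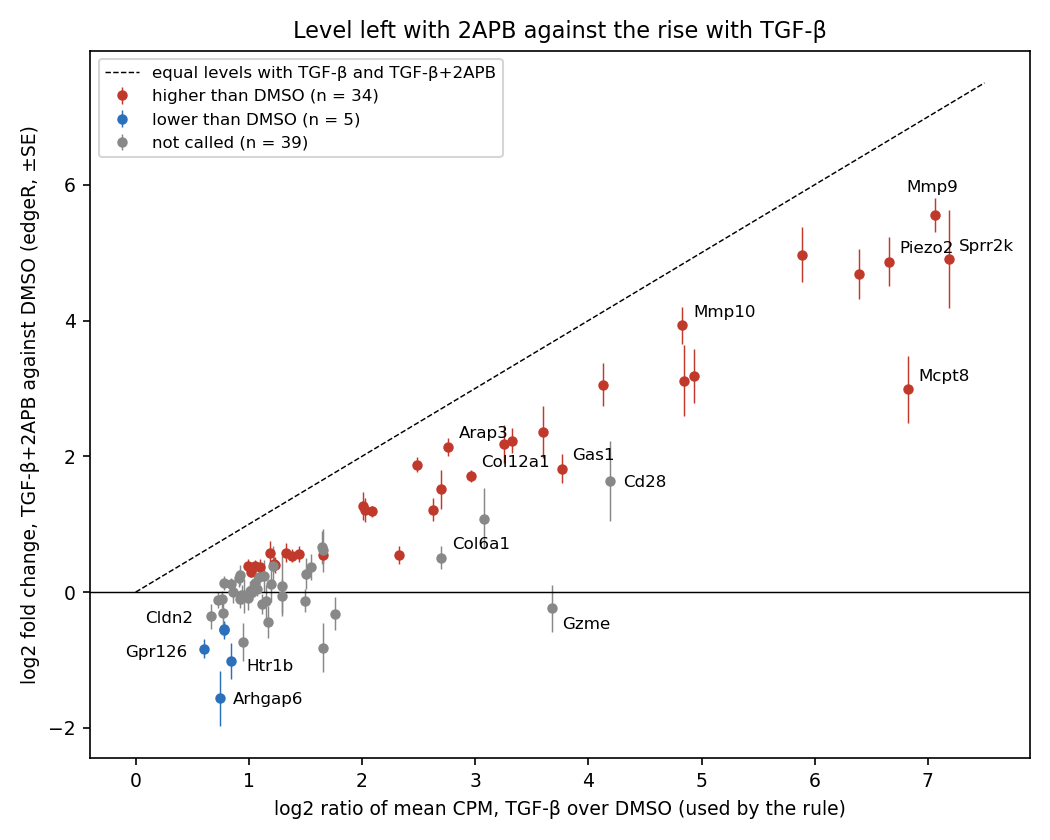
Log2 ratio of mean CPM between TGF-β and DMSO (horizontal axis, used to choose the members) against the log2 fold change of TGF-β+2APB against DMSO (vertical axis, edgeR, bars are ±SE), 1 point for each of the 78 members. The 34 members called higher than DMSO include those with the steepest rises, the 5 called lower all rose less than 3-fold, and Sprr2k, Piezo2 and Megf6 rest on 4 counts or fewer in each DMSO library. By the rule, only members with larger rises could lie far above DMSO.

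The largest group by role was replication, repair, chromatin and division, with 15 members, and here the level with 2APB was close to that of DMSO. All 15 rose between 1.58-fold and 2.72-fold with TGF-β, none was under 1 CPM in DMSO, and the median share of the rise absent with 2APB was 104%. The rule bounds both results on one side. With TGF-β+2APB at least 1.5-fold below TGF-β, a gene with so small a rise cannot lie far above DMSO. Against DMSO, 3 were called higher (Cdc6, Bard1 and Fignl1), 1 lower (Asf1b) and 11 not called, with a median log2 fold change of 0.008. Of all tested genes, 25.6% were called higher and 27.2% lower. Suv39h1, the methyltransferase that marks heterochromatin on histone H3, had 76.2 and 79.6 CPM in DMSO, 166 and 132 CPM under TGF-β and 66.7 and 78.5 CPM under TGF-β+2APB. The DMSO and TGF-β+2APB libraries overlapped, and both TGF-β libraries stood above them, as the rule requires of every member. Uhrf1, which guides the copying of DNA methylation after replication, followed the same course with 50.4 and 58.2, then 122 and 103, then 54.0 and 59.9 CPM. Values given this way are for the replicates of DMSO, then of TGF-β, then of TGF-β+2APB. Their differences between TGF-β+2APB and DMSO were within error, with log2 fold changes of -0.04 ± 0.14 (SE, FDR = 0.843) for Suv39h1 and 0.13 ± 0.13 (FDR = 0.413) for Uhrf1.

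Members that act at replication origins and forks were lower in level and varied more in what was left with 2APB. Cdc6, the factor that loads the MCM helicase and whose promoter stretch is shown above, had 8.11 and 10.4 CPM in DMSO, 24.4 and 21.9 CPM under TGF-β and 12.8 and 13.6 CPM under TGF-β+2APB. It stayed above DMSO by 0.58 ± 0.14 on the log2 scale (FDR = 0.0166). Mcm10, which helps to switch on that helicase, went from 11.3 and 12.6 CPM to 24.8 and 20.6 CPM and was at 10.2 and 11.1 CPM with TGF-β+2APB, below both DMSO libraries but not called (FDR = 0.534). Wdhd1, a fork protein, and Clspn, the mediator of the checkpoint kinase CHK1, had log2 fold changes of 0.13 and 0.20 against DMSO, and neither was called. E2f7, a repressor of E2F targets, had 4.22 and 5.29 CPM in DMSO, 9.89 and 10.7 CPM under TGF-β and 4.002 and 4.04 CPM under TGF-β+2APB. Mybl2, a regulator of late cell cycle genes, had 11.02 and 13.1, then 25.8 and 23.3, then 11.4 and 11.8 CPM. Both were near their DMSO level, with log2 fold changes of -0.18 (FDR = 0.341) and 0.01 (FDR = 0.961).

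Bard1, the partner of BRCA1, and Fignl1, which acts in homologous recombination, were both called higher with TGF-β+2APB than with DMSO, by 0.56 ± 0.12 (FDR = 0.0109) and 0.38 ± 0.10 (FDR = 0.0224). Bard1 had 6.70 and 7.91 CPM in DMSO, 19.4 and 20.4 CPM under TGF-β and 10.9 and 9.65 CPM under TGF-β+2APB. Both TGF-β+2APB libraries lay above both DMSO libraries, as in 39.8% of all rows with a mean of at least 1 CPM under TGF-β. Asf1b, a chaperone that hands histones to new chromatin, was the exception in the other direction. It had 9.43 and 9.94 CPM in DMSO, 17.8 and 15.5 CPM under TGF-β and 5.79 and 6.83 CPM under TGF-β+2APB, and was called lower than DMSO by 0.56 (log2 fold change -0.56 ± 0.13, FDR = 0.0153). Eme1, a subunit of a structure-specific nuclease, Nsl1, a kinetochore subunit, Gsg2, the kinase haspin, and Kif24, a kinesin, ranged from -0.36 to 0.25 on the log2 scale against DMSO, and none of the 4 was called. The calls of Cdc6, Bard1, Fignl1 and Asf1b were each lost when replicate 1 of DMSO or of TGF-β+2APB was left out.

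The wider DNA replication and G1/S list (66 genes tested, 5 of them members) also rose with TGF-β in most of its genes. With TGF-β, 49 of the 66 were called higher and 1 lower, with a median log2 fold change of 0.65, where 21.8% of all tested genes were called higher and 19.7% lower. When 2APB was added to TGF-β, none was called higher by edgeR (2 at an unadjusted p under 0.05, 1 by DESeq2) and 24 were called lower, with a median of -0.37, where 6.58% of all tested genes were called higher and 10.9% lower. Against DMSO, 25 were called higher and 5 lower with TGF-β+2APB, with a median of 0.22, where 25.6% of all tested genes were called higher and 27.2% lower. Leaving out the 5 members, which had to rise and fall, 44 of 61 were called higher with TGF-β and 19 lower when 2APB was added. Against DMSO, 24 of these 61 were higher and 5 lower with TGF-β+2APB, with a median of 0.24. These comparisons share libraries. The refits that follow count calls in either direction and include the 5 members. The count of 24 was 7 and 8 without replicate 1 or 2 of TGF-β+2APB, 14 and 13 without replicate 1 or 2 of DMSO and 37 without replicate 2 of TGF-β.

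Genes of mitosis and G2/M followed another course, and 1 of the 79 tested, Mybl2, was a member. With TGF-β 23 were called higher and 3 lower, with a median log2 fold change of 0.16, where 21.8% of all tested genes were called higher and 19.7% lower. Once 2APB was added, 62 were called lower than under TGF-β and none higher (0 at an unadjusted p under 0.05 in edgeR and 0 by DESeq2), with a median of -1.29. Of all tested genes, 10.9% were lower and 6.58% higher. The count against DMSO was 62 lower and 4 higher, with a median of -1.05, where 27.2% of all tested genes were lower and 25.6% higher. The replication members had levels close to DMSO in the same libraries in which most mitosis genes were below DMSO. The rule that chose the replication members keeps them from lying far above DMSO, whereas the mitosis list was not picked by it.

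**Figure D4:**
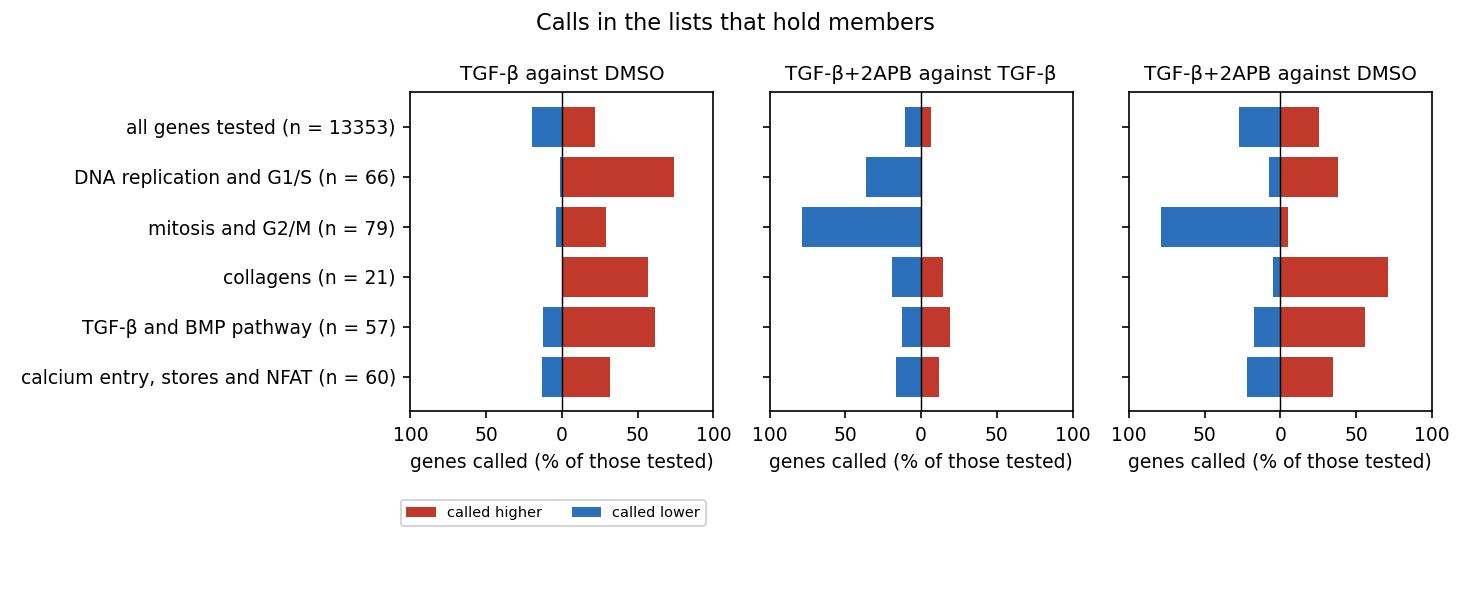
Percent of the tested genes of each list called higher (right) or lower (left) in the 3 comparisons, by edgeR at an FDR of at most 0.05. Bars include the members, which by the rule had to rise with TGF-β and be lower with 2APB. Without the members, 19 of 61 DNA replication genes and 1 of 18 collagen genes were called lower with TGF-β+2APB than with TGF-β. Of the mitosis genes, 62 of 79 were lower with TGF-β+2APB than with DMSO, while 25 of the 66 DNA replication genes were still higher and 5 lower.

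Among 9 transcription and cell-cycle regulators, 2 (Cdk14 and Lbh) were called higher than DMSO and 7 were not called, where 25.6% of all tested genes were called higher. Etv4 and Etv5 are ETS factors that act downstream of FGF and MAP kinase signalling. Etv4 had 11.5 and 13.3 CPM in DMSO, 37.7 and 31.8 CPM under TGF-β and 9.26 and 12.4 CPM under TGF-β+2APB. Etv5 had 18.8 and 21.1, then 46.8 and 35.4, then 19.1 and 21.2 CPM. In both, the TGF-β+2APB libraries overlapped those of DMSO, and the log2 fold changes were -0.13 ± 0.17 (FDR = 0.576) and 0.08 ± 0.16 (FDR = 0.698).

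Cdk14, a cyclin-dependent kinase, kept the most of its rise in this group. Its levels were 2.35 and 2.51 CPM in DMSO, 12.9 and 14.3 CPM under TGF-β and 8.51 and 8.55 CPM under TGF-β+2APB, so 45.4% of the rise was absent and the gene stayed above DMSO by 1.88 ± 0.11 on the log2 scale (FDR = 9.18e-05). Cdkn2a, which encodes the inhibitors p16 and p19Arf, had 2.89 and 2.51, then 5.84 and 5.62, then 3.15 and 2.89 CPM, and was not called against DMSO. Hmga1, a chromatin protein with many processed copies in the genome that could share its reads, had 1.46 and 1.253, then 3.32 and 2.89, then 1.158 and 1.68 CPM. Mycl, of the Myc family, the DNA-binding protein Arid3b and the chromatin factor Dpf1 were likewise not called against DMSO, while Lbh, a transcription cofactor, was called higher by 0.41.

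Matrix proteins, proteases and secreted factors formed a group of 15 members, of which 7 were called higher than DMSO, none lower (0 also at an unadjusted p under 0.05 in edgeR and 0 by DESeq2) and 8 not called. The shares of all tested genes were 25.6% higher and 27.2% lower. Col12a1, a fibril-associated collagen, was the most abundant of them. It had 82.6 and 86.9 CPM in DMSO, 657 and 664 CPM under TGF-β and 246 and 286 CPM under TGF-β+2APB. With 2APB 68.5% of the rise was absent, and the gene stayed above DMSO by 1.71 ± 0.09 on the log2 scale (FDR = 7.09e-05). The type VI collagen genes Col6a1 (chr10:76708792-76726168) and Col6a2 (chr10:76595762-76623630) are neighbours 85.2 kb apart on the minus strand and lost nearly all or all of their rise. Col6a1 had 6.18 and 6.93, then 47.0 and 38.3, then 7.75 and 10.1 CPM, with a log2 fold change against DMSO of 0.51 ± 0.17 (FDR = 0.0513). Col6a2 had 1.98 and 2.28, then 8.03 and 6.42, then 1.33 and 1.93 CPM, with a log2 fold change of -0.32 ± 0.24 (FDR = 0.311).

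Of the 18 other collagen genes tested, 9 were called higher with TGF-β and none lower by edgeR (1 at an unadjusted p under 0.05, 0 by DESeq2), where 21.8% and 19.7% of all tested genes were. With 2APB added, 3 of the 18 were called higher and 1 lower than with TGF-β, where 6.58% and 10.9% of all tested genes were. The median log2 fold change was 0.20. Against DMSO 14 were higher with TGF-β+2APB and 1 lower, where 25.6% and 27.2% of all tested genes were. Of the glycoproteins, Tnc (tenascin C) had 1.36 and 1.89, then 4.86 and 5.29, then 2.77 and 2.13 CPM, and the small proteoglycan Bgn had 1.30 and 1.75, then 3.02 and 2.92, then 1.56 and 1.24 CPM. Tnc was above both DMSO libraries but not called (FDR = 0.0637), and Bgn overlapped DMSO.

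Mmp9, a gelatinase, was low in DMSO, with 0.365 and 0.278 CPM. It reached 42.6 and 43.5 CPM under TGF-β and was at 17.0 and 12.1 CPM with TGF-β+2APB, so that 66.7% of the rise was absent but the level remained above DMSO by 5.55 ± 0.25 on the log2 scale (FDR = 5.11e-05). Mmp10, a stromelysin whose promoter stretch is given above, had 0.391 and 0.251, then 9.11 and 9.15, then 5.34 and 4.11 CPM. With 50.02% of its rise absent, it stayed 3.93 ± 0.27 above DMSO (FDR = 0.000172). In both genes the TGF-β+2APB libraries lay above both DMSO libraries, as in 39.8% of all rows with a mean of at least 1 CPM under TGF-β. Of the 80 other extracellular proteases and inhibitors tested, none of them a member, 15 were called higher and 15 lower with TGF-β+2APB than with TGF-β. The shares of all tested genes were 6.58% and 10.9%.

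Mcpt8 and Gzme are granule serine proteases of basophils and of cytotoxic lymphocytes, encoded 32.4 kb apart on chromosome 14 (chr14:56082166-56085273 and chr14:56117626-56120625), and they had the largest differences between TGF-β and TGF-β+2APB. Mcpt8 had 6 and 16 counts in DMSO, 1454 and 1146 counts under TGF-β and 64 and 116 counts with TGF-β+2APB, a 15.0-fold difference in mean CPM between the latter groups. Gzme had 30 and 46 counts in DMSO, 572 and 436 under TGF-β and 26 and 40 under TGF-β+2APB. Mcpt8 stayed above DMSO by 2.98 ± 0.49 on the log2 scale (FDR = 0.00399), whereas Gzme overlapped DMSO (-0.24 ± 0.35, FDR = 0.598). Granzyme genes of this cluster are close copies of each other, so reads of Gzme may include those of its relatives. Leukocyte markers summed to 17.3 and 7.44 CPM in the TGF-β libraries and to 490 CPM in replicate 2 of TGF-β+2APB. Most of the latter sum was the macrophage gene Lyz2. In that replicate Mcpt8 was at 1.47 CPM and Gzme at 0.508 CPM. Which cells the RNA of these genes came from was not tested.

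**Figure D5:**
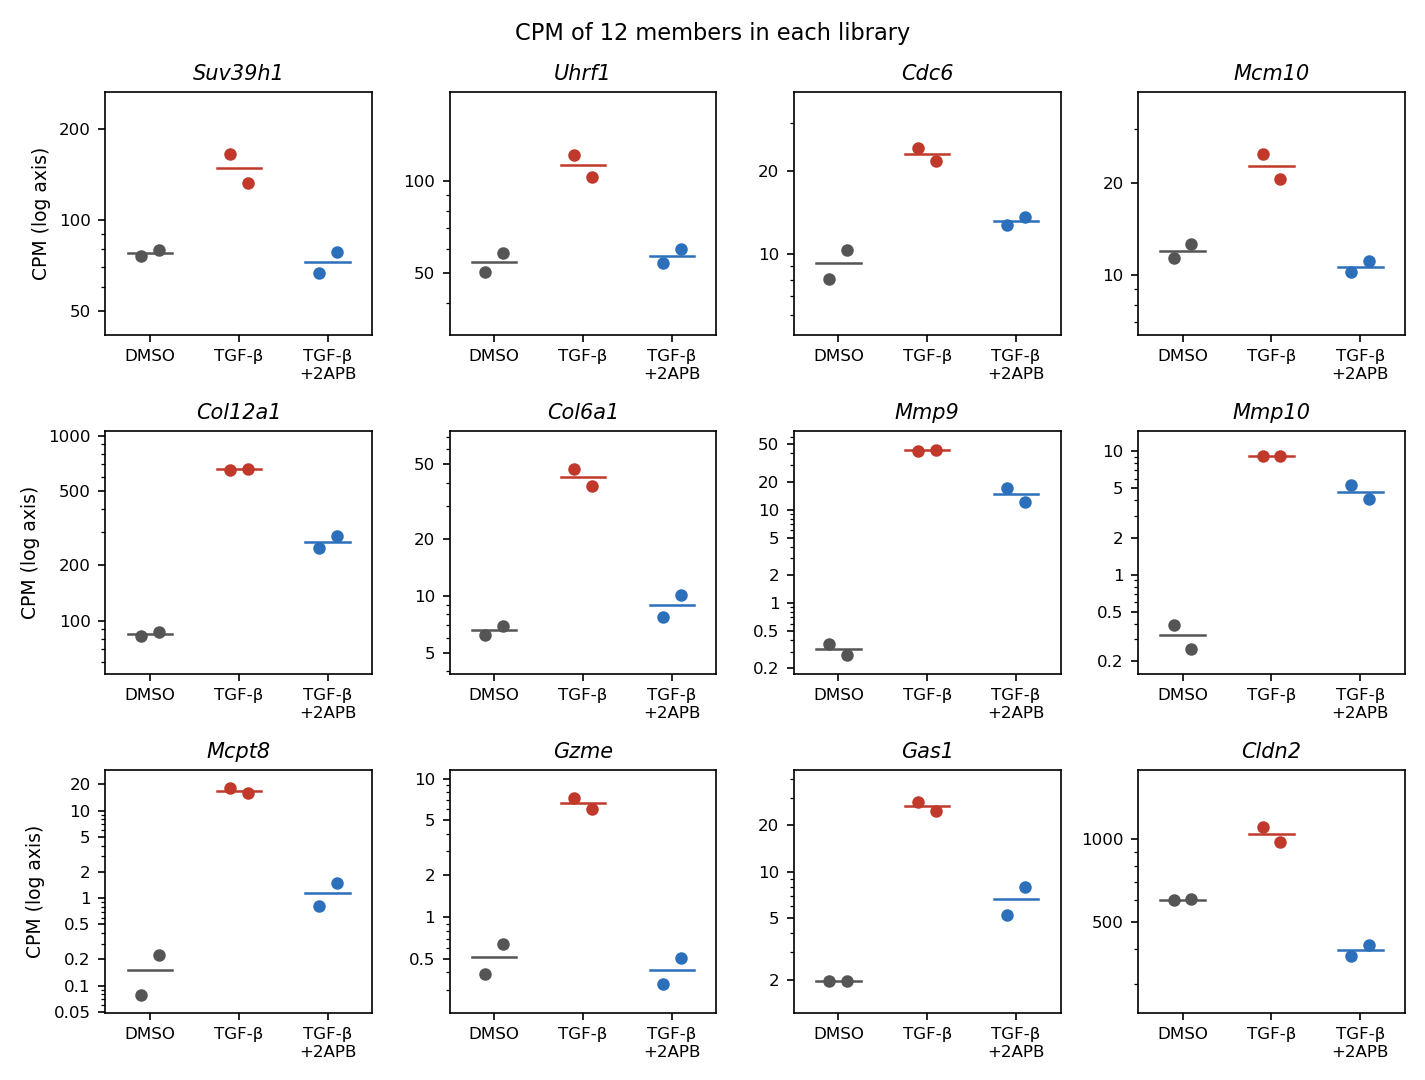
CPM (log axis) of 12 members in each library, with points for the 2 replicates and a bar for their mean. The TGF-β+2APB points of Suv39h1 and Uhrf1 overlap those of DMSO. Those of Col12a1, Mmp9, Mmp10, Mcpt8 and Gas1 lie above DMSO, and those of Cldn2 lie below it. By the rule, all lie below TGF-β.

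Secreted regulators of growth and metabolism differed in what was left with 2APB. Igfbp4, an IGF-binding protein, had 24.3 and 24.6 CPM in DMSO, 171 and 130 CPM under TGF-β and 48.5 and 60.2 CPM under TGF-β+2APB, above DMSO by 1.21 ± 0.17 on the log2 scale (FDR = 0.00223). Grem1, an antagonist of BMPs, had 0.417 and 0.306, then 4.81 and 7.88, then 2.97 and 2.82 CPM and stayed 3.05 ± 0.32 above DMSO (FDR = 0.000688). Bmp2, a ligand that Grem1 binds, had 8.70 and 8.41, then 15.3 and 15.4, then 8.73 and 9.01 CPM and was not called against DMSO (0.12 ± 0.09, FDR = 0.326). Angptl4, an inhibitor of lipoprotein lipase, also lay at its DMSO level, with 12.8 and 12.9, then 27.9 and 26.2, then 11.7 and 13.7 CPM. Ism1 overlapped DMSO as well, while Megf6 had 2 and 4 counts in DMSO, 202 and 166 under TGF-β and 110 and 90 under TGF-β+2APB.

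Grem1 and Bmp2 belong to the TGF-β and BMP pathway. Of the 55 other genes of that pathway tested, 33 were called higher and 7 lower with TGF-β, where 21.8% and 19.7% of all tested genes were. With 2APB added 11 were called higher and 6 lower than with TGF-β alone, with a median log2 fold change of 0.07. The shares of all tested genes there were 6.58% and 10.9%. Against DMSO 31 of the 55 were higher and 10 lower with TGF-β+2APB, where 25.6% and 27.2% of all tested genes were.

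Receptors and surface proteins contributed 14 members, of which 8 were called higher than DMSO, 3 lower and 3 not called. The shares of all tested genes were 25.6% higher and 27.2% lower. Cldn2, a pore-forming claudin of tight junctions, was by far the most abundant of all members, also per kilobase of exon (313 CPM per kb with TGF-β, followed by Slc29a1 at 44.9 and Col12a1 at 43.4). It had 601 and 608 CPM in DMSO, 1107 and 971 CPM under TGF-β and 378 and 416 CPM under TGF-β+2APB. The TGF-β+2APB libraries were below both DMSO libraries, and the gene was called lower by 0.54 (log2 fold change -0.54 ± 0.10, FDR = 0.00522). That call was lost without replicate 1 of TGF-β+2APB.

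The other surface members called lower were G protein-coupled receptors. Gpr126, an adhesion receptor that binds collagen, had 47.0 and 47.2 CPM in DMSO, 71.3 and 71.8 CPM under TGF-β and 21.4 and 29.2 CPM under TGF-β+2APB, a log2 fold change against DMSO of -0.83 ± 0.14 (FDR = 0.00458). Htr1b, a serotonin receptor, had 3.60 and 3.81, then 5.74 and 7.58, then 1.36 and 2.16 CPM (-1.01 ± 0.26, FDR = 0.0205), a call that was lost without either DMSO library or without replicate 1 of TGF-β+2APB. Its exons overlap those of a gene on the opposite strand, so with no strand setting stated their reads cannot be told apart. Ptger4, a receptor for prostaglandin E2, was close to its DMSO level (4.53 and 4.20, then 7.83 and 9.81, then 4.20 and 4.24 CPM), and Gpr124, a receptor of vascular Wnt signalling, stayed slightly above it (3.23 and 3.70, then 18.8 and 16.1, then 4.66 and 5.03 CPM). Rxfp3, a relaxin family receptor, had 4 and 6 counts in DMSO, 478 and 390 under TGF-β and 162 and 108 under TGF-β+2APB.

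Gas1, a surface protein that binds hedgehog ligands, had 1.95 CPM in each DMSO library, 28.4 and 24.8 CPM under TGF-β and 5.26 and 7.95 CPM under TGF-β+2APB. Gas1 stayed above DMSO by 1.82 ± 0.22 on the log2 scale (FDR = 0.00114). Emp2, a tetraspan membrane protein, had 21.4 and 22.0, then 74.1 and 62.7, then 29.5 and 31.0 CPM, and Itga11, a collagen-binding integrin subunit and the only integrin among the members, had 0.182 and 0.195, then 1.76 and 1.85, then 0.881 and 0.762 CPM. Both were called higher than DMSO, Emp2 by 0.54 (FDR = 0.00765) and Itga11 by 2.18 (FDR = 0.00156). The call of Emp2 was lost without either DMSO library (FDR 0.0598 without replicate 1 and 0.0542 without replicate 2).

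Several surface members belong to immune or cytokine signalling. Il18rap, a subunit of the interleukin 18 receptor, had 3.44 and 4.90 CPM in DMSO, 39.6 and 43.9 CPM under TGF-β and 20.4 and 17.0 CPM under TGF-β+2APB. Spn (CD43) had 0.261 and 0.139, then 6.14 and 6.09, then 1.33 and 2.18 CPM, and Il13ra2, a decoy receptor for interleukin 13 whose promoter stretch is shown above, had 6 and 4 counts in DMSO, 96 and 192 under TGF-β and 44 and 46 under TGF-β+2APB. Il18rap (2.23 ± 0.19, FDR = 0.000329), Spn (3.18 ± 0.39, FDR = 0.00133) and Il13ra2 (3.11 ± 0.52, FDR = 0.0042) were called higher than DMSO on the log2 scale. The costimulatory receptor Cd28 had 2 and 6 counts in DMSO, 76 and 76 under TGF-β and 10 and 16 under TGF-β+2APB and was not called (FDR = 0.0628), nor was Sigirr. All 5 were, by the rule, highest in the TGF-β libraries, whose leukocyte marker sums were 17.3 and 7.44 CPM. Ptprc, the pan-leukocyte marker CD45, was at 1.28 and 0.937 CPM there and at 9.54 CPM in replicate 2 of TGF-β+2APB. Which cells the RNA of these members came from was not tested.

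Channels and transporters numbered 5, and 4 of them were called higher than DMSO, where 25.6% of all tested genes were. Slc29a1, a nucleoside transporter, had 82.9 and 84.9 CPM in DMSO, 195 and 165 CPM under TGF-β and 98.9 and 110 CPM under TGF-β+2APB, above DMSO by 0.38 ± 0.11 (FDR = 0.0354). That call was lost with scaling by library size alone (FDR = 0.0504), with the replicate number as a block (FDR = 0.0646) and without any one DMSO or TGF-β+2APB library (FDR 0.0932 to 0.170). Kcnq5, a potassium channel subunit, had 1.12 and 1.53, then 4.93 and 5.71, then 2.89 and 3.20 CPM and stayed higher by 1.26 ± 0.21 (FDR = 0.00405). Cacnb2, a subunit of voltage-gated calcium channels, overlapped DMSO with 5.34 and 7.52, then 15.9 and 15.6, then 4.58 and 7.23 CPM. Piezo2, a mechanically gated cation channel, had 2 counts in each DMSO library, the smallest count above 0 in these data. It had 190 and 222 under TGF-β and 66 and 60 under TGF-β+2APB. Sfxn5, a mitochondrial carrier, was the remaining member (0.54 ± 0.10, FDR = 0.00645).

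The list of calcium entry, calcium stores and NFAT, the pathway that 2APB acts on, held 60 tested genes, 1 of them a member (1.39% of the list in the table, where 0.421% of all rows were members). That member was Camkk1, a kinase that acts on calmodulin kinases. It had 4.87 and 4.76 CPM in DMSO, 8.46 and 7.88 CPM under TGF-β and 4.33 and 4.24 CPM under TGF-β+2APB. The TGF-β+2APB libraries were below both DMSO libraries, but the gene was not called (-0.11 ± 0.12, FDR = 0.511). Of the 59 other genes of the list, 18 were called higher and 8 lower with TGF-β, where 21.8% and 19.7% of all tested genes were. With TGF-β+2APB 7 of the 59 were higher and 9 lower than with TGF-β, where 6.58% and 10.9% of all tested genes were. Over the whole list, with Camkk1, the sum of the latter calls was 17, and it was 5 to 8 when a DMSO or TGF-β+2APB library was left out and 28 without replicate 2 of TGF-β.

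Signalling and cytoskeletal regulators held 10 members, with 5 called higher than DMSO, 1 lower and 4 not called, where 25.6% of all tested genes were higher and 27.2% lower. Arap3 kept more of its rise than any other member. It had 2.68 and 3.40 CPM in DMSO, 20.01 and 21.3 CPM under TGF-β and 12.6 and 13.1 CPM under TGF-β+2APB and stayed 2.14 ± 0.13 above DMSO on the log2 scale (FDR = 0.000114). Vav3 and Rnf152, a ubiquitin ligase, were also called higher, by 1.21 ± 0.18 (FDR = 0.00273) and 2.36 ± 0.38 (FDR = 0.00367). Spred3, an inhibitor of the Ras and MAP kinase pathway, had 18.2 and 20.1, then 38.2 and 39.3, then 21.9 and 22.998 CPM, above DMSO by 0.29 ± 0.08 (FDR = 0.0224), and Pdxp, a phosphatase that acts on cofilin, by 0.57 ± 0.17 (FDR = 0.0367).

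The lowest level relative to DMSO was that of Arhgap6. It had 1.88 and 2.03 CPM in DMSO, 3.17 and 3.39 CPM under TGF-β and 0.378 and 0.888 CPM under TGF-β+2APB, a log2 fold change against DMSO of -1.56 ± 0.40 (FDR = 0.021) that lost its call without either DMSO library. Up to 1335 bases of its exons lie opposite an exon of Hccs, whose level was 16.0 to 23.8 CPM in the 6 libraries. Cnn1, the smooth muscle calponin, had 1.04 and 0.974, then 2.19 and 1.71, then 0.529 and 0.635 CPM, below both DMSO libraries but not called (-0.73 ± 0.28, FDR = 0.0728). Arhgap28 and the transducin subunit Gnat2 were not called either.

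The last 10 members are enzymes and genes of other or unassigned function, of which 5 were called higher than DMSO and none lower (0 also at an unadjusted p under 0.05 in edgeR and 0 by DESeq2). The shares of all tested genes were 25.6% higher and 27.2% lower. Pcyt1b, an enzyme of phosphatidylcholine synthesis, had 8.39 and 8.91 CPM in DMSO, 37.5 and 36.2 CPM under TGF-β and 19.2 and 18.6 CPM under TGF-β+2APB, above DMSO by 1.19 ± 0.08 on the log2 scale (FDR = 0.000163). Fam110c had 22.1 and 20.7, then 45.7 and 43.1, then 27.2 and 26.2 CPM, and Tpst1, a tyrosine sulfotransferase, had 5.06 and 4.68, then 11.8 and 11.1, then 6.34 and 5.91 CPM, and both were called higher. Sprr2k, of a family of closely similar cornified envelope genes, had 2 and 0 counts in DMSO, 150 and 138 under TGF-β and 32 and 36 under TGF-β+2APB. Tmem200a had 1.41 and 1.197, then 4.58 and 3.61, then 0.478 and 0.939 CPM and was not called (-0.82 ± 0.37, FDR = 0.114). Of the non-coding members 1700018A04Rik was called higher (1.52 ± 0.29, FDR = 0.00671), and Gm19589, C630043F03Rik, Zfand4 and Ndst3, a heparan sulfate sulfotransferase, were not called.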

How the data were processed

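Counts for 6 libraries (50-base single-end reads of NMuMG RNA) were used as the authors deposited them: raw gene counts, made after FastQC 0.11.2 with TopHat2 2.0.13 and featureCounts and not normalized. Per the labels the build was mm10, although the study's methods name a human build. Strand setting and annotation are not given in the sources used here. All counts were even, and 25 rows carry names turned into dates, none of them a member.

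Genes with a mean of at least 20 counts after TMM scaling were fitted in 1 model of 3 groups with edgeR 4.0.16 (R 4.3.3), tested by quasi-likelihood F-tests and called at a Benjamini-Hochberg FDR of at most 0.05. The biological coefficient of variation was 17.4%. SE is the log2 fold change over the square root of F. The procedure was tested on simulated data. Genes were matched by symbol to GENCODE M21 (GRCm38), which placed 18272 rows and all 78 members. Exons of 8 members (Spred3, Gpr124, Ptger4, Eme1, Htr1b, Tmem200a, Arhgap6 and Hmga1) overlap another gene of the table on the opposite strand. Python 3.11.15, pandas 2.3.3 and matplotlib 3.10.9 made tables and plots.

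Members and gene lists were chosen with earlier results of these data known, and role groups after the values were seen. Members were named by level (12 highest), by ratio (12 largest), by list membership, by the 6 largest and 6 smallest fold changes against DMSO and by nearness to the threshold (3 on each side). The remaining members and the marker and overlapping genes were named after their values were seen. Alternatives were other scalings, DESeq2 1.42.0, no filter, a replicate block, stricter calls, other thresholds of the rule and each library left out. After the data were seen, halved counts, a block with exchanged numbers, counts for 5 lists and a search of every promoter window were added.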

Additional observations from a re-analysis of the deposited data

How the results depend on the processing

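The rule kept 250 genes at the looser fold threshold, 23 at a fold of 2, 170 with no minimum level and 155 on ratios of group means. Leaving out single libraries gave 82 to 153 (153 and 127 without TGF-β replicate 1 or 2). Members called higher than DMSO were 34 in the main analysis, 22 at a log2 fold change of at least 1, 13 among members at a fold of 2, and 22 to 35 with a library left out (22 without DMSO replicate 1). Members called lower were 5, and 2 at an FDR of 0.01, 2 at a log2 fold change of at least 1, 0 among members at a fold of 2 (by edgeR, with 0 at an unadjusted p under 0.05 and 0 by DESeq2) and 2 to 6 with a library left out (2 without either DMSO replicate, 3 without TGF-β+2APB replicate 1). Otherwise the calls against DMSO stayed between 30 and 36 higher and between 5 and 6 lower under other scalings, DESeq2 and filters, and 24 were higher at an FDR of 0.01. No called member changed the sign of its fold change. Of the members not called, 13 changed sign in at least 1 refit, 4 of them (Angptl4, Gsg2, Mybl2 and Ptger4, each within 0.045 of DMSO on the log2 scale) with scaling by library size alone, which moved the median of all genes from -0.003 to -0.07, and the others with a library left out. Counted per member and refit, called members lost their call 54 times, mostly with a library left out. Slc29a1, Fam110c, Spred3, Gpr124, Lbh, Tpst1 and Pdxp lost it whichever DMSO or TGF-β+2APB library was left out. Scaling by library size alone removed the call of Slc29a1, Spred3, Fignl1 and Pdxp, and the replicate block that of Slc29a1 and Pdxp. Gained calls were followed only for Tmem200a and Cnn1 among the members not called, and were seen 2 times. Over all members, DESeq2 called 36 higher, 34 of them shared with the main analysis, and the block with exchanged numbers did the same. The cause of these changes was not tested. A refit with a library left out also has fewer samples.

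The replicate numbers did not pair the libraries (correlations of deviations 0.148, -0.458 and -0.255). With the replicate block 32 members were called higher and 5 lower, with the TGF-β+2APB numbers exchanged 36 and 6, and 95 genes met the rule within same-numbered pairs. The block lowered the calcium list from 17 to 8 calls between TGF-β+2APB and TGF-β.

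Genes called in lists moved as well. These counts take calls in either direction and include the members. With only the 4 libraries compared, calls between TGF-β+2APB and TGF-β were 15 for DNA replication, 9 for the TGF-β and BMP pathway (28 by DESeq2) and 6 for calcium. With a library left out they were 7 to 37 for DNA replication, 9 to 28 for TGF-β and BMP, 4 to 12 for collagens and 5 to 28 for calcium, each highest without TGF-β replicate 2 and lowest without a DMSO or TGF-β+2APB library. For TGF-β against DMSO the ranges were 27 to 53 for DNA replication (27 without DMSO replicate 1), 6 to 43 for mitosis (6 and 12 without DMSO replicate 1 or 2, 43 without TGF-β replicate 2), 27 to 43 for TGF-β and BMP and 14 to 31 for calcium, which had 22 to 42 for TGF-β+2APB against DMSO, each lowest without a DMSO library. Mitosis genes called between TGF-β+2APB and TGF-β stayed between 51 and 75.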
